A study of Mus musculus with 16 samples.

Results

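Expression of 9 heat-shock genes was followed across the immune classes of mouse melanomas, in droplet single-cell RNA data that list 32285 genes. The 9 genes were Hspa1a, Hspa1b, Hspa8, Dnajb1, Dnaja1, Hsph1, Hsp90aa1, Hspd1 and Hspe1, taken by symbol, and all 9 were found in each of the 8 matrices. They were selected on measured values of these same libraries, in which levels of Hspa1a and Hspa1b differed between lanes and classes. The levels of Hspa1a and Hspa1b by class and by lane, and their differences between groups, are therefore described without a test. Tests are given for the other 7 members. These were chosen with the same results in view, so their p-values are not independent of that choice. All C57BL/6J mice carried subcutaneous tumours grown from 1000000 cells of the B16 melanoma line Bro4.1, either control or B2m-null, B2m being the light chain of MHC class I. Treatment was 100 µg of anti-CD40, an agonist antibody to a receptor that activates antigen-presenting cells, or 100 µg of a rat IgG2a isotype control. It was injected intraperitoneally at days 6, 9 and 12 of tumour growth, and mice were killed at day 14. Tumours were digested with collagenase and DNase for 10 min at 37 °C, and CD45+ cells were enriched on magnetic beads, tagged by mouse, pooled within a group and run on droplet lanes. The labels attach the genotype to the mouse but the series' design attaches it to the implanted cells, which is the reading used here.

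The 4 groups are control tumours under isotype antibody (5 mice in 2 pools), control tumours under anti-CD40 (2 mice in 1 pool, run on 2 technical lanes), B2m-null tumours under isotype antibody (5 mice in 2 pools) and B2m-null tumours under anti-CD40 (4 mice in 2 pools). These numbers take each hashtag in the files as 1 mouse, and hashtags of the same number on both technical lanes as the same mouse, neither of which the labels state. Because the control CD40 group is 1 pool, that group and that pool cannot be told apart in any comparison that uses it. Mice of 1 pool also shared their handling, lane and library, which the tests over mice do not take into account.

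Heat-shock proteins are chaperones that bind unfolded proteins and help them to fold or to be degraded. Heat, oxidative damage and other protein stress release the transcription factor HSF1 from repression, and HSF1 trimers then bind heat-shock elements, which are inverted repeats of the unit nGAAn, in the promoters of these genes. Hspa1a and Hspa1b encode the inducible cytosolic HSP70, and Hspa8 its constitutive relative. Dnajb1 and Dnaja1 encode HSP40 co-chaperones that deliver substrates to HSP70 and start its ATPase, and Hsph1 encodes HSP110, a nucleotide exchange factor for HSP70. Hsp90aa1 encodes the inducible cytosolic HSP90, and Hspd1 and Hspe1 encode HSP60 and HSP10, the chamber and lid of the mitochondrial folding machine. Tissue digestion is known to induce both heat-shock and immediate-early genes in single-cell preparations.

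The promoter windows of 4 members are shown because heat-shock elements are where HSF1 binds, and because Hspa1a and Hspa1b are near-identical copies that a count table might confuse. Each window runs from 250 bases before to 50 bases after the start of transcription in RefSeq, on GRCm38.p6 (mm10). Capitals mark 2-unit heat-shock elements, searched as GAANNTTC or TTCNNGAA, each of which reads the same on both strands, so that overlapping elements merge into 1 run of capitals.
Hspa1a, chr17:34972107-34972406, minus strand: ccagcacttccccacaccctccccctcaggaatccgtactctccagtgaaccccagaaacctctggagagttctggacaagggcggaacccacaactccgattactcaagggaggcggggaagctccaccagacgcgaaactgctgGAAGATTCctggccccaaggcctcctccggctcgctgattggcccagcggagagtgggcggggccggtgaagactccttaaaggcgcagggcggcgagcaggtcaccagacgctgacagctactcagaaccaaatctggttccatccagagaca
Hspa1b, chr17:34959189-34959488, minus strand: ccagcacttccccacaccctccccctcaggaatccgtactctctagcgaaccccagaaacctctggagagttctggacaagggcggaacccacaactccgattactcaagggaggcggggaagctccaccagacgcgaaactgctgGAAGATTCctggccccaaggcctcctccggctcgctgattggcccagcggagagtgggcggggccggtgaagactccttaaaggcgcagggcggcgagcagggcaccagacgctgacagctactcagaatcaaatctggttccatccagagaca
Hspe1, chr1:55087898-55088197, plus strand: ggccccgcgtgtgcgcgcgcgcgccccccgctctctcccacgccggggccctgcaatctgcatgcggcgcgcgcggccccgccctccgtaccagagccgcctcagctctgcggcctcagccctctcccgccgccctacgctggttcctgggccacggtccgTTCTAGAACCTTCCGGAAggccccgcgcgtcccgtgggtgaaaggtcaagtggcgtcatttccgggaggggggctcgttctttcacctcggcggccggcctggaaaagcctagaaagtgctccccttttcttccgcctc
Hsph1, chr5:149636287-149636586, minus strand: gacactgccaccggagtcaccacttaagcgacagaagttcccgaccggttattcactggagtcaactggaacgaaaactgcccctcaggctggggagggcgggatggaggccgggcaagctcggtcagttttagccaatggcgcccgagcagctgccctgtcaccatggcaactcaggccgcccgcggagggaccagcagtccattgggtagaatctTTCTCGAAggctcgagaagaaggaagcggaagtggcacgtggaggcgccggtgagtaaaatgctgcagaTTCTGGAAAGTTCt

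The Hspa1a and Hspa1b windows were identical at 296 of 300 positions (98.7%), and each held 1 such element, which started 104 bases before the start site. The Hspe1 window held 3 overlapping 2-unit elements, starting 89, 84 and 79 bases before the start site, and these made 2 of the 3-unit form, searched as GAANNTTCNNGAA or TTCNNGAANNTTC on both strands. The same block lies in a window of Hspd1, chr1:55087883-55088182 on the minus strand, because Hspd1 and Hspe1 are transcribed in opposite directions and their annotated 5′ ends overlap by 112 bases. The other Hspd1 window, chr1:55088194-55088493, held none. The Hsph1 window shown held 3 elements of 2 units, starting 33 bases before and 37 and 42 bases after the start site. Those after the start site made 1 of the 3-unit form. One of the 3 windows listed for Dnaja1 held 1 element, and the 2 listed for Dnajb1 held none of these letters. Over all 27025 genes with a window, 17% held a 2-unit element and 0.662% held a 3-unit element, which is a match of letters and not a binding site. Windows were matched for 7 of the 9 members.

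In GRCm38 with the GENCODE annotation, Hspa1a lies at chr17:34969190-34972156 and Hspa1b at chr17:34956436-34959238, both on the minus strand and 9951 bases apart. Their coding sequences were identical at 1915 of 1926 aligned positions (99.4%). Their 3′ untranslated regions, where reads of a 3′ assay fall, were identical at 414 of 875 aligned positions (47.3%). None of the 451 stretches of 50 bases in the last 500 bases of either transcript occurred in the other copy. The treatment of reads common to both copies is not given in the sources used here. The sum of the genes is therefore printed as well. The other members are Hspa8 at chr9:40800984-40810087 (plus), Dnajb1 at chr8:83608193-83612653 (plus), Dnaja1 at chr4:40722150-40737149 (plus), Hsph1 at chr5:149614287-149636376 (minus), Hsp90aa1 at chr12:110690605-110702728 (minus), Hspd1 at chr1:55077835-55088243 (minus) and Hspe1 at chr1:55088132-55091307 (plus).

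Lanes held 45985739 to 99264875 unique molecular identifiers (UMIs, each counting 1 captured RNA molecule), with a median of 1715 to 4225 per barcode, and 9615 to 13666 cells per lane were kept. Pairs of lanes shared 41 to 92 cell barcodes. Cells were placed in classes by marker genes, and 36705 macrophage-gated, 13434 CD8 T-gated, 6812 monocyte-gated, 2188 cDC1-gated (type 1 conventional dendritic) and 2179 NK-gated cells carry most of the results, with 15261 cells in no class. The gate is a range of a score rather than a type: 1503 monocyte-gated, 2186 macrophage-gated and 269 cDC1-gated cells lay near its boundary. Of monocyte-gated cells, 24.1% held at least 2 macrophage markers, and 34.2% of macrophage-gated cells held at least 2 monocyte markers. So did 36.5% of CD8 T-gated and 25% of cDC1-gated cells, and 29.3% of melanoma-gated cells held at least 2 macrophage markers. The part of these overlaps in the results was not tested. In melanoma-gated cells, B2m itself was at 1065 to 2141 CPM (counts per 1000000 UMIs of the class) in the 4 control lanes and at 192 to 473 CPM in the 4 B2m-null lanes. Gated cells held 34063 UMIs of Hspa1a and 24811 of Hspa1b, against 566749 of Hspa8.

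Monocyte-gated cells had the highest mean level of inducible HSP70, and melanoma-gated cells the lowest. Summed over both copies, the level averaged 298 ± 174 CPM (SD, n = 7 pools) in monocyte-gated, 172 ± 104 in neutrophil-gated (n = 5), 168 ± 55.9 in macrophage-gated and 163 ± 199 CPM in cDC1-gated cells (both n = 7). CD8 T-gated cells averaged 94.5 ± 33.7 CPM, NK-gated cells 62.8 ± 38.0 CPM (both n = 7) and melanoma-gated cells 27.2 ± 23.4 CPM (n = 6). No step between neighbours in the order of 11 classes was larger than the SD over pools. B-gated cells came second in that order at 214 ± 325 CPM (n = 6), a mean carried by control isotype replicate 2, where 51 cells gave 842 CPM, while B2m-null CD40 replicate 2 had no UMI of either gene in 60 cells (exact upper bound 5.96% for the share of cells in which a UMI would be detected, not of cells that express the genes).

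Hsp90aa1, Hspa8 and the co-chaperone and mitochondrial members Dnaja1 and Hspd1 were ordered differently. Hsp90aa1 averaged 2349 ± 413 CPM in melanoma-gated cells (n = 6 pools), above CD8 T-gated cells at 895 ± 295 CPM (n = 7) by more than the SD. Dnaja1 had the same order, at 441 ± 73.1 against 301 ± 44.6 CPM. Hspd1 averaged 1815 ± 409 CPM in melanoma-gated and 375 ± 185 CPM in CD8 T-gated cells. Hspa8 was highest in cDC1-gated cells at 2141 ± 328 CPM, which did not exceed melanoma-gated cells (1997 ± 233 CPM) by more than the SD. The class with the lowest inducible HSP70 was thus the class with the highest Hsp90aa1, Hspd1 and Dnaja1, and the cells of that class were those left after enrichment for CD45.

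**Figure D1:**
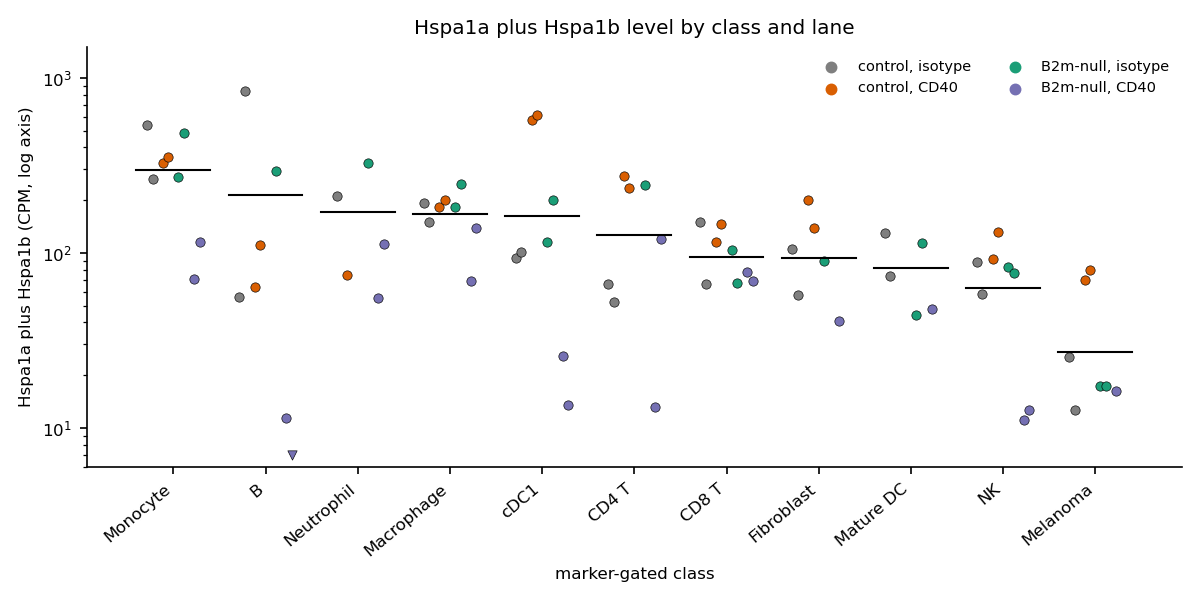
Hspa1a and Hspa1b levels by class and lane. Each point is the level in 1 lane (CPM, log axis, coloured by group), a bar is the mean over pools, and a lane at 0 is drawn as a triangle at the lower edge. Within cDC1-gated cells the lanes run from 6.98 to 332 CPM for Hspa1a, while CD8 T-gated lanes stay between 35.9 and 70.6 CPM.

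Lanes differed widely within cDC1-gated cells, which take up dead tumour cells and present their antigens to CD8 T cells. For Hspa1a, the 2 control isotype lanes had 48.5 and 61.7 CPM, the 2 control CD40 lanes 332 and 283 CPM, the 2 B2m-null isotype lanes 67.2 and 120 CPM, and the 2 B2m-null CD40 lanes 6.98 and 10.5 CPM. Hspa1b was at 45.4 and 39.5 CPM, 242 and 327 CPM, 48.4 and 80.2 CPM, and 18.6 and 3.01 CPM in the same order. The control CD40 lanes were the highest and the B2m-null CD40 lanes the lowest for both genes, a pattern that 1.41% of genes with a mean of at least 10 UMIs per lane had in this class. The cells behind these values numbered 548 and 381, 58 and 92, 621 and 311, and 96 and 81. Hspa8 in the same cells stayed between 1614 and 2551 CPM.

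Monocyte-gated cells had low values in the B2m-null CD40 lanes, while the control CD40 lanes lay among the isotype lanes for both copies. For Hspa1a, control isotype lanes had 274 and 169 CPM, control CD40 lanes 168 and 149 CPM, B2m-null isotype lanes 140 and 285 CPM, and B2m-null CD40 lanes 45.4 and 78 CPM. Hspa1b was at 265 and 94.8, 160 and 204, 133 and 200, and 25.4 and 37.5 CPM in that order. Macrophage-gated cells showed a narrower range, with Hspa1b at 79.9 and 49.6, 73.6 and 104, 80.3 and 92.9, and 22.2 and 43.3 CPM in that order. In both classes the B2m-null CD40 lanes were the lowest for Hspa1b. NK-gated cells had Hspa1b at 37.6 and 35.4, 50.4 and 101, 44.4 and 40.3, and 5.54 and 2.52 CPM, again lowest in the B2m-null CD40 lanes. Of such genes, 16.4% in monocyte-, 16.6% in macrophage- and 10.7% in NK-gated cells had both B2m-null CD40 lanes below all others. Over the 5 classes with a level in all 8 lanes, Hspa1b was lowest in B2m-null CD40 replicate 1 in 2 and in replicate 2 in 3, and highest in control CD40 replicate 2 in 4. Hspa1a was lowest in B2m-null CD40 replicate 1 in 4 and in B2m-null isotype replicate 2 in 1. It was highest in control isotype replicate 1 in 2, in B2m-null isotype replicate 2 in 2 and in control CD40 replicate 1 in 1.

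Mice of 1 group also differed from each other, which the lane values hide. In cDC1-gated cells Hspa1a was at 75.2, 24.9, 57.7, 52.9 and 65.3 CPM in the 5 control isotype mice and at 436 and 218 CPM in the 2 control CD40 mice. The 5 B2m-null isotype mice had 684, 28.6, 45.2, 128 and 78.9 CPM, and the 4 B2m-null CD40 mice 8.47, 0, 6.98 and 13.8 CPM. Both control CD40 mice were above all control isotype mice, and all 4 B2m-null CD40 mice were below every other mouse. Of genes with a mean of at least 10 UMIs per mouse, 13% had the control CD40 mice above all control isotype mice in this class, and 10.6% the B2m-null CD40 mice below all B2m-null isotype mice. The B2m-null CD40 values rest on 8 UMIs of Hspa1a in all. The 684 CPM of 1 B2m-null isotype mouse rest on 92 UMIs in 24 cells.

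In monocyte-gated cells Hspa1a was at 630, 209, 269, 184 and 150 CPM in the control isotype mice, 233 and 103 CPM in the control CD40 mice, 155, 68.3, 130, 172 and 348 CPM in the B2m-null isotype mice, and 50.4, 21.0, 101 and 46.8 CPM in the B2m-null CD40 mice. The first control isotype mouse stood above the rest of its group, and it was also the highest of that group in CD8 T-gated cells, at 119 CPM against 27.2 to 46.5 CPM. In macrophage-gated cells the same mouse was at 121 CPM and its group ranged from 87.8 to 139 CPM. Fewer cells carried that mouse's monocyte value (130) than those of the other 4 mice (350 to 653).

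**Figure D2:**
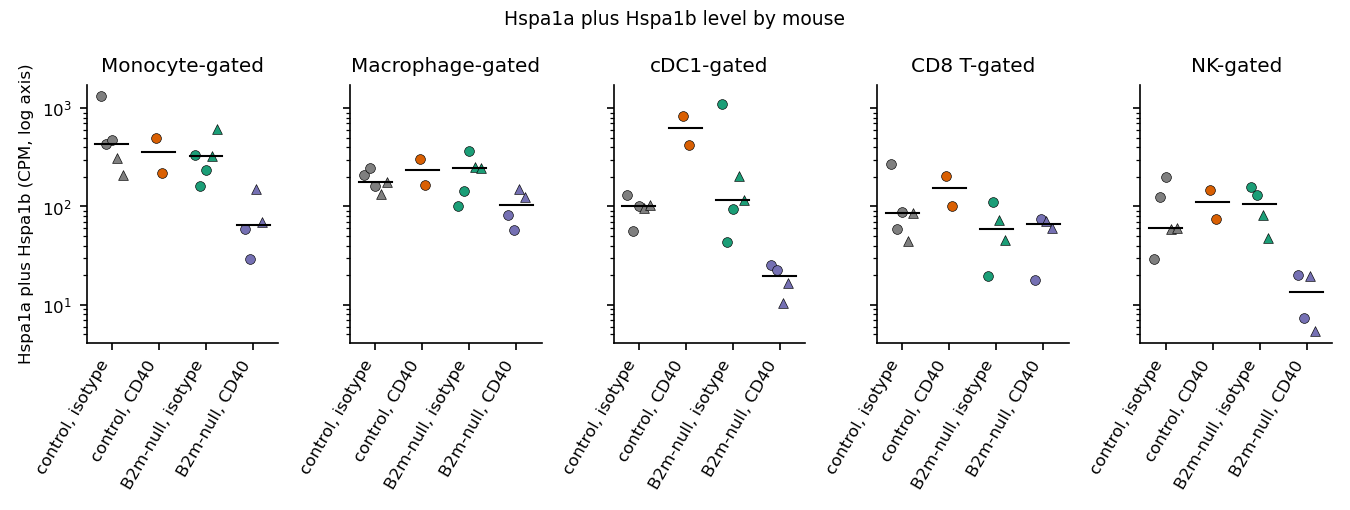
Hspa1a plus Hspa1b by mouse. Each point is 1 mouse (CPM on a log axis, circles for the first pool and triangles for the second), columns are the groups and bars mark medians. In NK-gated and cDC1-gated cells the 4 B2m-null CD40 mice lie at 5.36 to 25.4 CPM, below the other mice.

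The size of these differences was set beside the spread at each step of handling, as the SD of log2(CPM + 1) and its median over classes. For Hspa1a plus Hspa1b it was 0.31 between technical lanes for the same mouse, 1.05 between mice of a pool, 0.61 between pools of a group and 0.99 between group means. The first of these spreads among mice is of single mice, while the last is of means. Means vary less than single mice, so their like size does not show that groups differed no more than mice. Hsph1 had 0.13, 0.50, 0.28 and 0.56 on the same scale. Hspa8 had 0.13, 0.20, 0.17 and 0.15, and the sum of 17 immediate-early genes had 0.06, 0.18, 0.19 and 0.19, with the same limit. With a minimum of 50 rather than 20 cells per mouse and class, the value for mice of a pool was 0.64 for Hspa1a plus Hspa1b, below that between group means. At that minimum it was 0.36 for Hsph1, 0.15 for Hspa8 and 0.11 for the immediate-early genes.

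At a fixed depth, UMIs of inducible HSP70 were detected in a minority of cells. That share depends on the depth and is not the share of cells that express the genes. No share expected under equal expression was computed. After each cell had been thinned to 1000 UMIs, a UMI of either gene was found in 4.85% to 14.3% of macrophage-gated, 3.08% to 18.2% of monocyte-gated and 1.88% to 8.98% of CD8 T-gated cells, by lane. Unthinned shares, which grow with depth, were 10.6% to 29.9%, 7.69% to 22.4% and 3.85% to 15.4%. Among cDC1-gated cells, the thinned share was 22.2% (95% exact binomial interval 12.0% to 35.6%) and 30.8% (20.8% to 42.2%) in the 2 control CD40 lanes, and between 4.69% and 13.1% in the 4 isotype lanes. No thinned cell of 94 and 81 had a UMI in the B2m-null CD40 lanes, where the exact upper bounds were 3.85% and 4.45%. The median depth of cDC1-gated cells was 4186 and 2630 UMIs in the control CD40 lanes and 3650 and 7336 in the B2m-null CD40 lanes. These genes are inducible in all cells, so no class could serve as one known to lack them, and free RNA was not measured apart. Intervals cover counting error only.

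Where the genes were detected, the counts were uneven between cells. The Fano factor (variance over mean of thinned counts, 1 for random sampling) had a median of 4.61 over 47 lane-by-class sets for Hspa1a plus Hspa1b, with a range of 1.12 to 38.1, and the top 5% of cells held a median of 89.1% of the UMIs. For Hsp90aa1 the medians were 1.38 and 27.6%, and for Hspa8 they were 1.36 and 17.6%. For Dnajb1 they were 1.04 and 92.5%, and for Hsph1 1.19 and 95.5%, both with fewer UMIs. A high share in the top cells was thus not particular to inducible HSP70, while its Fano factor was the higher. The most uneven set was monocyte-gated cells of control isotype replicate 1, where 1 cell of 1520 held 144 of 1077 thinned UMIs. In macrophage-gated cells, the control CD40 lanes had Fano factors of 2.99 and 2.56, against 8.65 to 10.3 in the 4 isotype lanes and 4.61 and 4.84 in the B2m-null CD40 lanes. The mean per cell was 0.244 and 0.245 UMIs in the control CD40 lanes and 0.177 to 0.325 in the isotype lanes. The control CD40 lanes therefore held a like mean in more cells, 13.9% and 14.3% against 7.25% to 10.6%.

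The other members were higher in the same cells. Cells with at least 2 Hspa1a or Hspa1b UMIs were compared with cells of the same lane and class that had none, all thinned to 2000 UMIs, in the 17 lane-by-class sets that had 20 or more cells on each side. The ratio of means was above 1 for each of the other 7 members in 17 of 17 sets, where no test was made. The lowest ratios were near 1, at 1.005 for Hspd1, 1.02 for Hspe1 and 1.05 for Dnajb1. The share of all genes with such ratios was not computed, so whether the count is particular to the members is not known. The ratio was largest for Hsph1, with a median of 6.56, followed by Hsp90aa1 at 2.69, Dnaja1 at 2.04 and Dnajb1 at 1.76. The sum of immediate-early genes had a median ratio of 1.16 and was above 1 in 14 of 17. Within the 3 monocyte-gated sets Hsph1 reached 6.08 to 12.3, and in 8 macrophage-gated sets 2.25 to 6.74. It had 1.65 to 10.2 in 5 CD8 T-gated sets and 15.3 in 1 set of cDC2-gated (type 2 conventional dendritic) cells. Doublets that hashtags could not mark, and cell state within a class, were not separated here.

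**Figure D3:**
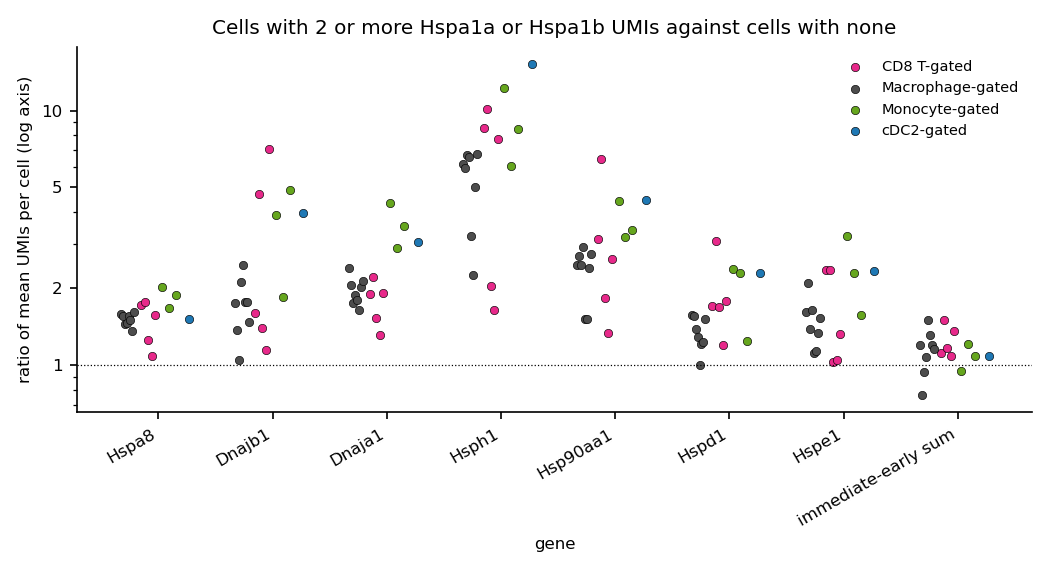
Members in cells with inducible HSP70 RNA. Each point is 1 lane and class, the vertical axis (log scale) is the ratio of the mean in cells with at least 2 Hspa1a or Hspa1b UMIs to that in cells with none, at 2000 UMIs per cell, and the dotted line marks a ratio of 1. Hsph1 stands highest with a median of 6.56, and immediate-early genes lie near the line at 1.16.

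In control tumours, anti-CD40 was accompanied by more Dnajb1 and, in some classes, more Hspe1, and by less Hsp90aa1 and Hspd1. Of 67 tests of the 7 members by class, 12 passed at an adjusted p of 0.05 in edgeR (17.9%), 7 higher and 5 lower, while 11% of all tested genes passed, 6.14% higher and 4.91% lower. In CD8 T- and macrophage-gated cells, which hold 7 of the 12 calls, 32.4% and 21.5% of all genes passed, and no test compared the members with other genes. The fits covered 10 classes, with mice as the unit and p adjusted over all genes of a class.

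Dnajb1, the HSP40 that recruits HSP70 to its substrates, rose in 4 of the 9 classes where it was tested. In CD8 T-gated cells it was at 118 and 107 CPM in the control CD40 mice and at 79.7, 66.2, 51.8, 49.2 and 55.5 CPM in the control isotype mice, without overlap, as 23.1% of genes were in the same direction. The log2 change was 0.96 (SE 0.17, edgeR adjusted p = 0.000549). The change was 0.51 in macrophage-gated cells (SE 0.09, edgeR adjusted p = 0.000946). Unscaled CPM there went from 41.5 to 53.8. The fit also applies scaling factors (TMM), so log2 changes, here and below, can differ from those of the CPM beside them. In melanoma-gated cells it was 1.16 (SE 0.21, edgeR adjusted p = 0.00133) and in cDC1-gated cells 1.19 (SE 0.29, edgeR adjusted p = 0.0149). Its direction was positive in 8 of 9 classes. Counts of direction over classes, here and below, rest on the same mice, and no share of all genes is given beside them. The cDC1-gated call was lost without either control CD40 mouse (edgeR adjusted p = 0.18 and 0.17), either control CD40 lane (0.0646 and 0.25) or control isotype replicate 2 (0.0676). Of all genes tested, 32.4% passed in CD8 T-gated, 21.5% in macrophage-gated, 4.85% in melanoma-gated and 4.46% in cDC1-gated cells.

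Hspe1, the HSP10 lid, rose in macrophage-, monocyte- and melanoma-gated cells, whereas Hspd1, its HSP60 partner, fell in macrophage- and CD8 T-gated cells. In macrophage-gated cells Hspd1 was at 195 and 180 CPM in the control CD40 mice against 244 to 329 CPM in the control isotype mice, a log2 change of -0.56 (SE 0.13, edgeR adjusted p = 0.00518). Hspe1 was at 209 and 224 CPM against 153 to 207 CPM there, a log2 change of 0.37 (SE 0.11, edgeR adjusted p = 0.0279). The genes thus differed in opposite directions, although they share a promoter region. For Hspe1 the nearest mice of the groups were almost level, at 209 and 207 CPM. In CD8 T-gated cells Hspd1 went from a mean of 530 to 228 CPM (log2 change -1.16, SE 0.27, edgeR adjusted p = 0.0036), and Hspe1 had a log2 change of -0.24 that did not pass (edgeR adjusted p = 0.244). In melanoma-gated cells Hspe1 went from 663 to 1092 CPM (log2 change 0.86, SE 0.11, edgeR adjusted p = 2.07e-05). The change in monocyte-gated cells was 0.73 (SE 0.19, edgeR adjusted p = 0.0191). Both Hspd1 calls were lost without the second control CD40 mouse (edgeR adjusted p = 0.0734 in macrophage- and 0.0988 in CD8 T-gated cells) and without control isotype replicate 1 (0.0931 and 0.106). Hspe1 lost its macrophage call without either control CD40 mouse, control CD40 replicate 2 or control isotype replicate 2 (edgeR adjusted p = 0.0716 to 0.277), and its monocyte call without the second mouse, control CD40 replicate 1 or control isotype replicate 1 (0.0604 to 0.618).

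Hsp90aa1 fell in CD8 T-, macrophage- and monocyte-gated cells, with log2 changes of -0.70, -0.43 and -0.50 (edgeR adjusted p = 0.0399, 0.0147 and 0.0402). In macrophage-gated cells the mice were at 500 and 440 CPM against 600 to 737 CPM in the isotype group. All 3 calls were lost without either control CD40 mouse or control isotype replicate 1 (edgeR adjusted p = 0.0617 to 0.475). The CD8 T call was also lost without B2m-null isotype replicate 1 (0.0503), and the monocyte call without control CD40 replicate 2 (0.175) or control isotype replicate 2 (0.0624). Mki67, a gene of dividing cells, was at 114 and 116 CPM in the CD8 T-gated cells of the control CD40 lanes and at 298 and 272 CPM in those of the control isotype lanes. The same lanes had 47.8 and 47.8 against 109 and 141 CPM in macrophage-gated cells. Its part in these changes was not tested, and this 1 gene was chosen after the values of the members were known.

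Inducible HSP70 is described without a test. Hspa1b in melanoma-gated cells was at 146 and 50.3 CPM in the control CD40 mice against 21.2, 26.5, 22.5, 8.96 and 5.48 CPM, without overlap, as 5.51% of genes were in the same direction. Its log2 change was 2.76 and that of Hspa1a 1.15. In cDC1-gated cells the log2 changes were 2.59 for Hspa1a and 2.84 for Hspa1b, and in NK-gated cells 0.87 for Hspa1b. In macrophage-gated cells Hspa1b had 0.71, and in monocyte-gated cells Hspa1a had -0.76. The log2 change of Hspa1b was positive in 8 of 10 classes and that of Hspa1a in 5 of 10. Among the tested members, Hspa8, Dnaja1 and Hsph1 passed in no class of this comparison in edgeR. The log2 change of Hspa8 was negative in 9 of 10 classes.

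Only 2 mice of 1 pool make up the control CD40 group, so that a fit without 1 of these mice has no spread for it. Without the first of them 7 of 68 tests passed, beside 5.63% of all genes, and without the second 5 of 68, beside 2.69%. Without control isotype replicate 1, 6 of 67 passed, beside 4.85%. The lane as the unit, here and below, sums the 2 technical lanes. The control CD40 group is then 1 sample, without a spread of its own. With the lane instead of the mouse as the unit, 2 of the 12 calls still passed (Dnajb1 in CD8 T- and melanoma-gated cells) and 10 did not, among them Dnajb1 in macrophage-gated (edgeR adjusted p = 0.0574) and Hspe1 in melanoma-gated cells (0.0513).

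In B2m-null tumours, anti-CD40 was accompanied by less Hsph1 and Hspd1 in monocyte-, macrophage- and CD8 T-gated cells. Of 53 tests of the 7 members by class, 8 passed in edgeR (15.1%), 7 of them lower, while 16.4% of all tested genes passed, 8.66% higher and 7.78% lower. The members' share is thus close to that of all genes. Monocyte-gated cells gave 3 of the 7, macrophage-gated cells 2 and CD8 T-gated cells 2, where 9.41%, 19.1% and 3.2% of all genes passed lower. Without B2m-null CD40 replicate 2, 2 of 53 tests passed, beside 9.75% of all genes, and without B2m-null isotype replicate 1, 4 of 53, beside 9.06%. Hsp90aa1 and Dnaja1 had a negative log2 change in 8 of 8 classes, the last passing in none.

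Hsph1, the HSP110 exchange factor, fell in 3 classes. Between lanes of a class it followed inducible HSP70 (Pearson r = 0.72), whose levels chose the genes. Its p-values, here and in the comparisons below, are therefore not independent of that choice. In monocyte-gated cells it was at 16, 16.3, 19.4 and 5.85 CPM in the B2m-null CD40 mice against 55.4, 35.7, 40.6, 45.8 and 68.1 CPM in the B2m-null isotype mice, a log2 change of -1.59 (SE 0.28, edgeR adjusted p = 0.000401). The groups did not overlap, as for 12% of genes in the same direction. In CD8 T-gated cells it was at 68.3 to 72.3 CPM in 4 mice against 116 to 176 CPM in 4 mice, a log2 change of -0.74 (SE 0.21, edgeR adjusted p = 0.0344). In macrophage-gated cells it was at 29.0 to 36.5 CPM against 41.8 to 74.4 CPM (log2 change -0.57, SE 0.16, edgeR adjusted p = 0.0102). In NK- and cDC1-gated cells its log2 change was -1.21 in each and did not pass (edgeR adjusted p = 0.0585 and 0.0649). The CD8 T call was lost without any 1 of the 4 B2m-null lanes (edgeR adjusted p = 0.0512 to 0.2), and the macrophage call without B2m-null CD40 replicate 2 (0.0807).

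Inducible HSP70 is again described without a test. Hspa1b in monocyte-gated cells was at 9.16, 8.13, 48.6 and 23.4 CPM in the B2m-null CD40 mice against 177, 92.1, 106, 155 and 259 CPM in the isotype mice, with no overlap and a log2 change of -2.59, beside the same 12% of genes, and that of Hspa1a was -1.60. In macrophage-gated cells Hspa1b was at 25.9, 17.7, 46.6 and 39.0 CPM against 38.5, 65.2, 162, 103 and 87.8 CPM, where 1 isotype mouse overlapped the CD40 group, and the log2 change was -1.25. Hspa1a in macrophage-gated cells had -0.64. In CD8 T-gated cells the log2 changes were 0.32 for Hspa1a and -0.40 for Hspa1b. In B-gated cells no UMI of Hspa1a was counted in 3 CD40 mice and 11 were counted in 2 isotype mice of 1 pool, so that group and pool cannot be told apart there. The log2 changes were -3.76 for Hspa1a and -3.09 for Hspa1b in cDC1-gated cells and -3.45 for Hspa1b in NK-gated cells. Hspa1b was lower in 8 of 8 classes by its log2 change, and Hspa1a in 7 of 8. These classes share mice, and some rest on few counts, with 3, 2 and 0 UMIs of Hspa1b in the neutrophil-gated CD40 mice.

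Hspd1 fell in CD8 T-gated cells from a mean of 458 to 197 CPM (log2 change -1.07, SE 0.23, edgeR adjusted p = 0.00984), in macrophage-gated cells by 0.43 and in monocyte-gated cells by 0.53 on the log2 scale (edgeR adjusted p = 0.00301 and 0.0108). Hsp90aa1 fell in monocyte-gated cells (log2 change -0.38, SE 0.12, edgeR adjusted p = 0.0226), a call lost without either B2m-null CD40 lane or B2m-null isotype replicate 2 (0.0818 to 0.0858). The 3 Hspd1 calls were lost without B2m-null CD40 replicate 2 (edgeR adjusted p = 0.107, 0.0726 and 0.106), and those in CD8 T- and monocyte-gated cells without B2m-null isotype replicate 1 (0.0845 and 0.0512). Dnajb1 passed in macrophage-gated cells with a log2 change of 0.22 (SE 0.08, edgeR adjusted p = 0.0292). Its unscaled CPM were 42.0 and 41.3 on average, while the fit also applies TMM factors, and the call was lost without B2m-null CD40 replicate 2 or B2m-null isotype replicate 1 (edgeR adjusted p = 0.193 and 0.18). Hspa8, the constitutive HSP70, passed in no class in edgeR, with log2 changes of -0.77 to 0.38. For Mki67 in CD8 T-gated cells, B2m-null CD40 lanes had 289 and 149 CPM and B2m-null isotype lanes 302 and 364 CPM. In macrophage-gated cells these lanes had 81.9 and 62.3 against 132 and 133 CPM, and in monocyte-gated cells, with at most 83 UMIs, 20.8 and 36.2 against 18.1 and 6.40 CPM. Its part in the fall of Hspd1 was not tested. The sum of immediate-early genes in monocyte-gated cells was 11834 to 13750 CPM in the CD40 mice against 15340 to 20452 CPM in the isotype mice, moving in the same direction as Hspa1b and Hsph1. Its part was not tested. With the lane as the unit, 3 of the 8 calls still passed, for Hsph1 and Hspd1 in monocyte-gated and Hsph1 in macrophage-gated cells, and 5 did not (edgeR adjusted p = 0.0567 to 0.209).

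**Figure D4:**
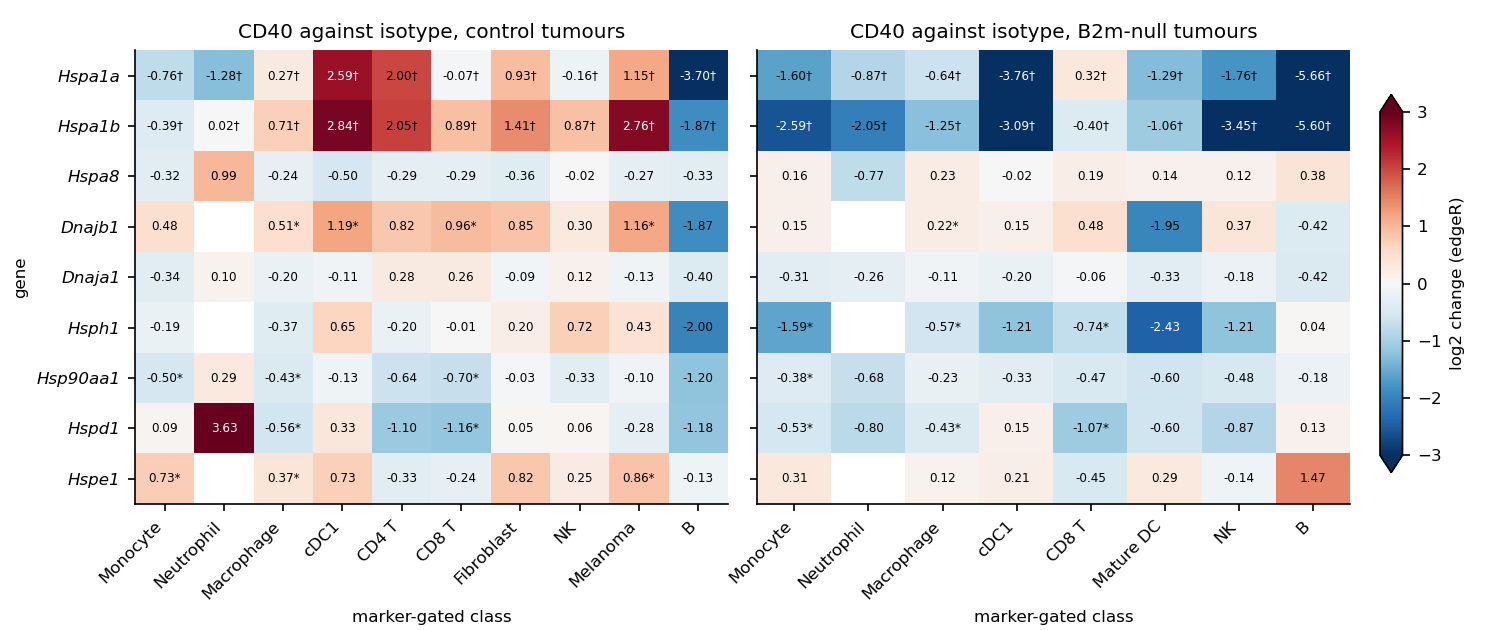
Log2 changes of the 9 members under anti-CD40, by class, in control tumours and in B2m-null tumours. Colour is the edgeR log2 change of CD40 against isotype over mice, an asterisk marks an adjusted p under 0.05, a dagger a value described without a test (both Hspa1 copies), and blank cells were not tested. Dnajb1 carries 4 asterisks in control tumours, and Hsph1 and Hspd1 carry 3 each in B2m-null tumours.

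The balance between Hspe1 and Hspd1 was described by the ratio of their UMIs in each lane. In macrophage-gated cells the ratio was 0.821 to 1.251 in the 4 CD40 lanes and 0.548 to 0.605 in the 4 isotype lanes. In monocyte-gated cells it was 0.939 to 1.12 against 0.566 to 0.698, and in CD8 T-gated cells 0.656 to 0.928 against 0.411 to 0.488. All CD40 lanes were above all isotype lanes in 8 of the 11 classes that had both, and the lanes overlapped in CD4 T-, NK- and cDC1-gated cells. For levels of single genes by class, 9.88% had every CD40 lane above every isotype lane, and 29.7% were apart in either direction. No such share was computed for ratios between genes, so these shares are not a like background for the ratio. The control CD40 lanes are technical lanes of 1 pool and not separate pools. The ratio was described after the members' values were known, and 2 of the 8 classes had 1 CD40 lane. These were neutrophil-gated cells, with 1 isotype lane, and mature DC-gated cells, with 4, where 100% and 66.6% of genes were apart in either direction.

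**Figure D5:**
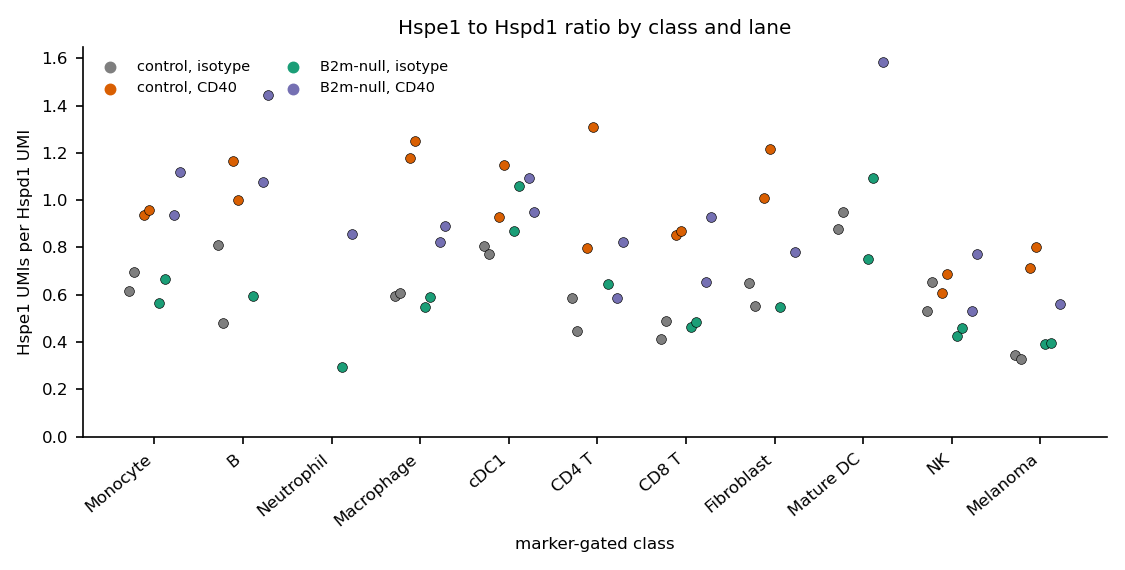
Ratio of Hspe1 to Hspd1 UMIs by class. Each point is 1 lane, coloured by group, and the vertical axis is the ratio. In macrophage-gated cells the 4 CD40 lanes lie at 0.821 to 1.251 and the 4 isotype lanes at 0.548 to 0.605.

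The 2 copies of Hspa1 did not keep a fixed proportion. The ratio of Hspa1b to Hspa1a UMIs in CD8 T-gated cells was 1.13 and 0.695 in the control isotype lanes, 1.74 and 2.30 in the control CD40 lanes, 1.07 and 0.867 in the B2m-null isotype lanes and 0.506 and 0.585 in the B2m-null CD40 lanes. In macrophage-gated cells the B2m-null CD40 lanes were again lowest, at 0.471 and 0.452, while the control CD40 lanes had 0.672 and 1.06. The control CD40 lanes were above all other lanes in 3 of 8 classes and overlapped them in 5. All CD40 lanes overlapped the isotype lanes in 7 of 8 classes. In melanoma-gated cells the ratio was above 1 in 5 of the 6 lanes with at least 10 UMIs of each copy, and ranged from 0.923 to 6.19. The promoter windows of the copies differ at 4 positions, and whether those bear on the ratio was not tested.

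No member passed between tumour genotypes under isotype antibody. Of 79 tests of the 7 members over 12 classes, 0 passed in edgeR and 0 in DESeq2, 13 had an unadjusted p under 0.05 in edgeR, and 2.43% of all genes passed in edgeR, 1.14% higher and 1.29% lower. The smallest adjusted p of edgeR was 0.228, for Hspa8 in macrophage-gated cells (log2 change -0.21, SE 0.11). Described without a test, Hspa1a in cDC1-gated cells had a log2 change of 1.27, where 1 B2m-null mouse was at 684 CPM, and Hspa1b had 0.31 in macrophage-gated and -0.56 in monocyte-gated cells. Without B2m-null isotype replicate 2, 3 of 61 tests passed, beside 4.29% of all genes.

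Under anti-CD40, Dnajb1 was lower in B2m-null than in control tumours in 2 classes and Hsph1 in 1. Of 60 tests these 3 passed in edgeR (5.0%) and 57 did not, while 4.78% of all genes passed, 2.39% in each direction, so that the members' share is close to that of all genes. Dnajb1 differed by -0.62 in CD8 T-gated and -0.33 in macrophage-gated cells (edgeR adjusted p = 0.0428 and 0.0313), and Hsph1 by -1.35 in monocyte-gated cells (edgeR adjusted p = 0.0307). All 3 calls were lost with the lane as the unit (edgeR adjusted p = 0.0879 to 0.448) and without either control CD40 mouse (0.0788 to 0.417). Both Dnajb1 calls were lost without B2m-null CD40 replicate 1 (0.126 and 0.104) or control isotype replicate 1 (0.0581 and 0.0549). Without control CD40 replicate 2, Dnajb1 in CD8 T-gated and Hsph1 in monocyte-gated cells lost theirs (0.0644 and 0.24), and without B2m-null CD40 replicate 2, Hsph1 in monocyte-gated and Dnajb1 in macrophage-gated cells did (0.072 and 0.0635). Dnajb1 also lost its macrophage call without control CD40 replicate 1 (0.0585) and its CD8 T call without any 1 isotype lane (0.0511 to 0.0602). Described without a test, Hspa1b had log2 differences of -2.08 in CD8 T-gated, -1.65 in macrophage-gated and -2.76 in monocyte-gated cells. In CD8 T-gated cells its level was 10.8, 24.7, 25.7 and 23.0 CPM in the mice with B2m-null tumours and 140 and 66.1 CPM in those with control tumours, so that the groups did not overlap, as for 20.8% of genes in the same direction. These comparisons use the same CD40 mice as those above.

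The difference of the CD40 effects between tumour genotypes was tested as an interaction. Of 46 tests over 7 classes, 1 passed in edgeR (2.17%), lower, while 9.25% of all genes passed, 4.99% higher and 4.26% lower. Hsph1 in monocyte-gated cells had an interaction of -1.40 (SE 0.44, edgeR adjusted p = 0.0442), from CD40 changes of -0.19 in control and -1.59 in B2m-null tumours. That call was lost in DESeq2 (adjusted p = 0.0533), with the lane as the unit (edgeR adjusted p = 0.103), and without either control CD40 mouse or any 1 lane other than control CD40 replicate 1 (0.0547 to 0.384). The described interactions of inducible HSP70 were -1.96 for Hspa1b in macrophage-gated cells, -6.36 for Hspa1a and -5.94 for Hspa1b in cDC1-gated cells and -4.32 for Hspa1b in NK-gated cells.

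The other genes of the chaperone network were read from 6 lists. In control tumours, 30 cytosolic chaperones and co-chaperones gave 239 tests, of which 29 passed lower (12.1%) and 3 higher (1.26%) under anti-CD40 in edgeR, beside 4.91% and 6.14% of all genes, with a median log2 change of -0.20 against -0.01 over all genes. CD8 T-gated cells held 15 of those lower calls in 27 tests and macrophage-gated cells 11 in 29, and 16% and 10.1% of all genes passed lower in these classes. In CD8 T-gated cells Cacybp (-1.22, SE 0.19), the HSP110 relative Hspa4 (-1.10, SE 0.16) and the constitutive HSP90 gene Hsp90ab1 (-0.95, SE 0.18) fell, while Dnaja4, another HSP40, rose by 1.35 (SE 0.42) in macrophage-gated cells. In the list of 18 endoplasmic reticulum chaperones and unfolded protein response genes, 27 of 170 tests passed lower (15.9%) and 7 higher (4.12%), with a median of -0.29. Sdf2l1 (-1.43), Creld2 (-1.23) and Pdia6 (-1.14) fell and Dnajb9 rose (1.56, SE 0.19) in CD8 T-gated cells. Immediate-early genes passed higher in 22 of 170 tests (12.9%) and lower in 3 (1.76%), among them Klf2 (1.95) and Junb (0.94) in CD8 T-gated cells.

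Shares of calls for regulators and mitochondrial partners were below or near the 11% of all genes. Of the 3 heat-shock factors and regulators, 1 of 22 tests passed (4.55%), lower, for Hsf2 in CD8 T-gated cells (-0.82, SE 0.27). Of 7 mitochondrial chaperones and proteases, 4 of 54 tests passed lower (7.41%) and 1 higher (1.85%), with Grpel1 (-0.99), Lonp1 (-0.84) and Trap1 (-0.77) lower in CD8 T-gated cells and Hspa9, the mitochondrial HSP70, higher in cDC1-gated cells (1.01, SE 0.26). Of 8 oxidative and metal stress genes, 4 of 57 tests passed higher (7.02%), including the metallothionein Mt1 in cDC1-gated cells (1.27, SE 0.29).

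In B2m-null tumours, where 8.66% of all genes passed higher and 7.78% lower, cytosolic chaperones passed higher in 6 and lower in 9 of 186 tests (3.23% and 4.84%), endoplasmic reticulum genes in 6 and 17 of 134 (4.48% and 12.7%), immediate-early genes in 12 and 4 of 136 (8.82% and 2.94%), mitochondrial genes in 5 and 2 of 42 (11.9% and 4.76%), heat-shock factors in 0 and 3 of 17 (the 3 being 17.6%), and oxidative and metal stress genes in 5 and 1 of 45 (11.1% and 2.22%). Hsf2 fell in mature DC-gated cells (-2.67, SE 0.57), of which the 2 B2m-null CD40 lanes held only 78 and 20. In monocyte-gated cells Pdia4 fell (-0.72, SE 0.17) and Grpel1 rose (0.94, SE 0.21). In the 17 monocyte-gated tests of immediate-early genes 4 passed lower, beside 9.41% of all genes there, the class in which Hsph1 also fell. Between tumour genotypes under isotype, endoplasmic reticulum genes passed higher in 9 of 200 tests (4.5%, beside 1.14% of all genes). Melanoma-gated cells gave 8 of the 9, with Hyou1 at 1.08 (SE 0.23) and Herpud1 at 0.92 (SE 0.21). In that class 0.354% of all genes passed higher, and the B2m-null isotype side was 2 mice, with 49 and 25 cells. Cytosolic chaperones passed in 2 of 274 tests. For the interaction, cytosolic chaperones passed higher in 14 and lower in 1 of 161 tests (8.7% and 0.621%, beside 4.99% and 4.26% of all genes).

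Genes whose level moved with inducible HSP70 were ranked over 88 lane-by-class sums, after each class had been centred on its mean over lanes, among 6484 genes with a mean of at least 20 CPM. Hsph1 ranked first, with a Pearson r of 0.72, and the leading genes included Maf (0.67), Prkar1a (0.66) and Sdcbp, Klf6, Crk and Ythdc1 (0.64 each). Among the other members, Dnaja1 ranked 154 (r = 0.50), Dnajb1 370 (0.43), Hsp90aa1 795 (0.35), Hspd1 1815 (0.22), Hspe1 2721 (0.13) and Hspa8 3314 (0.07). The sums share lanes and depth, so these values describe the data and carry no p. Over 15 class means instead, the leading genes were Klra2 (0.92), Metrnl (0.92), Rbpj (0.91) and Zbp1 (0.90), and Hsph1 had -0.28. Hsph1 thus followed inducible HSP70 between lanes of a class and between cells, but not from class to class.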

How the data were processed

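The deposited matrices hold raw counts of UMIs per gene and cell barcode, with hashtag counts in the same files, from the 3′ version 3 chemistry, per the labels' protocols. Cell Ranger 3.0.0, bcl2fastq 2.20.0.422 and the build mm10 are named in the submitters' processing notes. The members and lists were chosen with earlier results of these data known. Of the labels' 3 hashtags per pool, 2 files hold 3 and 6 hold 2. Barcodes with 2 hashtags more than 2.5 SD over background were removed as doublets, which leaves doublets within 1 mouse, and hashtags with a posterior of at least 0.9 in a mixture model and 20 counts named the mouse. In B2m-null isotype replicate 1, where the mixture assigned under 40% of cells, the mouse was named instead by a leading hashtag more than 1.5 SD over background with the others at or below that. Its background came from cells led by another hashtag, without the mixture, and the 2.5 SD limit for doublets was kept. A mouse was named in 46.9% to 96.2% of kept cells per lane. Kept cells had 200 or more detected genes and no more than 10% of their counts from mitochondrial genes.

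A cell entered a class when the score of that class's markers exceeded the next by 1.25 times with at least 2 markers detected, and "gated" names such cells. These limits were chosen with the data in view. Levels by lane use all gated cells of sets of at least 50 cells, and levels by mouse those of at least 20. Counts summed per mouse and class were tested with edgeR 4.0.16 in R 4.3.3 (quasi-likelihood, TMM scaling, filterByExpr), with all 4 groups in 1 fit per class and Benjamini-Hochberg adjustment over all genes of a class. The technical lanes were summed per mouse. The test was checked on simulated data for CD40 against isotype in control tumours, in macrophage-gated cells. It called 36% of genes with a simulated fold of 0.5, 44% with a fold of 2 and 0.05% of unchanged genes. With folds of 0.25 and 4 it called 91.7% and 100%. A member that did not pass is therefore not shown to be unchanged. All 9 members are named. The other named genes are the 10 most alike in pattern and at most 4 called genes per list with the largest log2 change. Some genes that this rule names are not reported here. Alternatives were DESeq2 1.42.0, its size factors, no low-count filter, thinning, a stricter gate, at most 5% mitochondrial counts, the lane as the unit, a replicate block, and leaving out each lane or control CD40 mouse. With the lane as the unit the 2 technical lanes were summed, so that control CD40 was 1 sample. Replicate numbers were not used as pairs. They named 2 pools per group, and the replicate differences correlated between groups at 0.03 to 0.30.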

Additional observations from a re-analysis of the deposited data

Results flagged for a closer look

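In groups of 4 or 5 mice, a mouse was singled out where its gap to the nearest other mouse took most of the group's range (Dixon's criterion). Of 135 groups of values, 14 had such a mouse. Chance alone flags about 1 in 20 separate groups, but these groups share mice and genes, so that rate does not apply to them. Inducible HSP70, whose levels chose the genes, was singled out in 3 classes, which is description and not a test. Monocyte-gated cells of 1 control isotype mouse were at 630 CPM of Hspa1a and 689 CPM of Hspa1b, and CD8 T-gated cells of the same mouse at 119 and 154 CPM. cDC1-gated cells of 1 B2m-null isotype mouse (24 cells) were at 684 CPM of Hspa1a, 424 CPM of Hspa1b, 141 CPM of Hsph1 and 1294 CPM of Hsp90aa1. In that mouse 4 members were high together.

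The other singled-out values were smaller departures. Hspa8 in macrophage-gated cells was at 1118 CPM in the lowest control isotype mouse and at 1443 CPM in the highest B2m-null CD40 mouse, and in NK-gated cells at 1488 CPM in the highest B2m-null isotype mouse. Hsp90aa1 in cDC1-gated cells was at 509 CPM in the lowest control isotype mouse. Hsph1 in CD8 T-gated cells was at 68.3 CPM in the lowest B2m-null CD40 mouse, within a group whose highest was 72.3 CPM. Hspd1 in NK-gated cells was at 254 CPM in the highest B2m-null CD40 mouse.

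The CD40 effect differed between tumour genotypes for Hsph1 in monocyte-gated cells (difference of log2 changes -1.40), past the threshold in edgeR. This was 1 of 46 tests of members (2.17%), beside 9.25% of all genes, and the call was lost in 14 of 17 alternatives, DESeq2 and the lane as the unit among them. For Hspa1a in cDC1-gated cells it was opposite, with both control CD40 mice above all control isotype mice and all 4 B2m-null CD40 mice below all B2m-null isotype mice (difference of log2 changes -6.36), where the difference was not tested because these levels chose the genes.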

How the results depend on the processing

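Counts of called tests of the 7 tested members moved with several settings, and the share of all genes called under a setting stands in brackets. For CD40 in control tumours the count was 12 (11%), and it was 2 with the lane as the unit (2.42%), 7 in cells thinned to 2000 UMIs (10.4%), 7 and 5 without control CD40 mouse 1 and mouse 2 (5.63% and 2.69%), and 6 to 15 over lanes left out 1 at a time, lowest without control isotype replicate 1 (4.85%). For CD40 in B2m-null tumours it was 8 (16.4%), and 5 by lane (6.08%) and 2 to 12 over left-out lanes, lowest without B2m-null CD40 replicate 2 (9.75%). For genotype under isotype it was 0 (2.43%), and 1 without a low-count filter (1.49%) and 0 to 3 over left-out lanes, highest without B2m-null isotype replicate 2 (4.29%). For genotype under CD40 it was 3 (4.78%), and 5 without the filter (2.63%), 0 by lane (0.174%), 0 thinned (3.15%), 0 without either control CD40 mouse (0.758% and 0.341%) and 1 to 4 over left-out lanes, lowest without control CD40 replicate 2 (2.9%) or control isotype replicate 1 (3.3%). For the difference of the CD40 effects it was 1 (9.25%), and 3 without the filter (4.08%), 0 by lane (0.281%), 0 with a stricter gate (8.49%), 0 thinned (6.63%), 0 without control CD40 mouse 2 (2.78%), and 0 to 4 over left-out lanes. With a replicate block the count was 12 for CD40 in B2m-null tumours (19.7%) and 0 for genotype under isotype, and 0 of the 8 single calls were lost. The block could not be fitted for the others because control CD40 is 1 pool.

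The share of cells with a UMI of inducible HSP70 was higher unthinned, at 15.2%, 20.8%, 18.7% and 7.96% in monocyte-, macrophage-, cDC1- and CD8 T-gated cells. At 2000 UMIs it was 6.37% in CD8 T- and 6.17% in NK-gated cells. Over 399 recomputed values of 24 called tests, 284 stayed called, 115 did not and 0 changed sign. With the lane as the unit 19 of 24 lost their call, and the cause was not tested. With at most 5% mitochondrial counts 8 of 24 were lost (adjusted p = 0.0552 to 0.224): Hsp90aa1 in monocyte- and Dnajb1 in cDC1-gated cells (CD40, control), Dnajb1 in macrophage-, Hsp90aa1 in monocyte- and Hsph1 in CD8 T-gated cells (CD40, B2m-null), both Dnajb1 calls between genotypes, and the difference for Hsph1. Thinned to 2000 UMIs, 11 of 23 were lost (0.0584 to 0.518): Hsp90aa1 in CD8 T- and monocyte-, Hspe1 in monocyte- and Dnajb1 in cDC1-gated cells (CD40, control), Dnajb1 in macrophage-, Hspd1 in monocyte- and Hsph1 in CD8 T-gated cells (CD40, B2m-null), the 3 calls between genotypes and the difference for Hsph1. Without the low-count filter 3 of 24 were lost: Dnajb1 in macrophage-gated (0.0655) and Hsp90aa1 in monocyte-gated cells (0.12) for CD40 in B2m-null tumours, and Dnajb1 in macrophage-gated cells between genotypes (0.0698). A stricter gate lost 3 of 24, between genotypes Hsph1 in monocyte-gated (0.238) and Dnajb1 in CD8 T-gated cells (0.0547), and the difference for Hsph1 (0.237). Dnajb1 in CD8 T- and melanoma-gated cells (CD40, control) and Hsph1 in monocyte-gated cells (CD40, B2m-null) stayed called under every alternative that gave a value. For Dnajb1 these include fits with 1 control CD40 sample, by lane or without 1 mouse, which have no spread for that group. The cDC1-gated level of Hspa1a in the 4 B2m-null CD40 mice rests on 8 UMIs in all, which limits its precision.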
